A study of Rattus norvegicus with 6 samples.

Results

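The set holds the genes of the immediate early response that encode the FOS and JUN proteins, EGR1, MYC and ATF3. They were found by gene name in the 6 count tables, and 9 of the 10 listed names were there, each on 1 row (Fos, Fosb, Fosl1, Fosl2, Jun, Jund, Egr1, Myc and Atf3), out of 18077 rows in all. The expression of Junb was not analysed here. The cultures were labelled as neonatal rat cardiomyocytes, taken from hearts of pups 1 to 3 days old, with pre-plating and BrdU used against fibroblasts. Every culture received an adenoviral vector and, for 24 h, 500 µM of the saturated fatty acid palmitic acid, and RNA was collected after 48 h. The control group was labelled Ad-GFP, after green fluorescent protein, and the other Ad-RNF128, after a ubiquitin ligase gene, with 3 libraries each. The labels give no animal, litter or culture for a replicate, so p-values measure only the spread between these libraries, which may be technical.

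Immediate early genes are switched on within minutes of a stimulus, from transcription factors that are already present, such as SRF with its ETS partners and CREB. FOS and JUN proteins carry a basic leucine zipper and pair with each other to form the transcription factor AP-1. EGR1 is a zinc finger factor, MYC pairs with MAX, and ATF3 is a stress-induced zipper protein of the ATF family that also pairs with JUN proteins. In heart cells these genes are known for their response to stretch, hypertrophic hormones and metabolic stress.

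Libraries held 16352843 to 21708973 counts. Genes without a read numbered 3551, 2288 and 2200 in Ad-GFP replicates 1 to 3 and 1190 to 1487 in the libraries labelled Ad-RNF128. The overexpressed gene did not bear out the label: Rnf128 had 0 to 2 counts in the libraries labelled Ad-GFP and 1 to 3 in those labelled Ad-RNF128. Another ubiquitin ligase gene, Rnf157, was at 22.3 to 40.4 CPM (reads of a gene per 1000000 counted) in the former and at 1923 to 2553 CPM in the latter. Directions below are for the libraries labelled Ad-RNF128 and rest on that label. Ad-GFP replicate 1 stood apart, its Spearman correlation with each other library being 0.776 to 0.818, so it is given separately.

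Cardiomyocyte markers were low for the labelled cell type. The 11 found of 12 summed to 81.1, 422 and 414 CPM in Ad-GFP replicates 1 to 3 and to 39.5 to 126 CPM in the libraries labelled Ad-RNF128. Most of that difference was Tnnt2, at 13.3, 342 and 350 CPM in Ad-GFP and 34.0 to 57.4 CPM in the libraries labelled Ad-RNF128. Myl7 was under 1 CPM in all 6 libraries and Nppa at most 3.98 CPM. Myh6 was at 10.8 to 16.02 CPM in 5 libraries and at 0.104 CPM in Ad-RNF128 replicate 3. Tnni3, Myh7, Actc1, Actn2, Ryr2, Myl2 and Nppa were also lowest in that library, at 0 to 0.312 CPM. Tnnt2 and Ttn were at 34.0 and 4.10 CPM there. Against Ad-GFP replicates 2 and 3, 0 of 10 tested cardiomyocyte markers were called higher and 2 lower. By the same edgeR test, described below, 28.9% of all genes were called higher and 28% lower, and the marker counts are to be read against these shares. The 9 fibroblast markers summed to 3243, 38420 and 40050 CPM in Ad-GFP and to 10540 to 11450 CPM in the libraries labelled Ad-RNF128, with 0 of 8 tested called higher and 5 lower. The collagen genes Col1a1, Col1a2 and Col3a1 made up most of that sum. Thy1 had 286, 224 and 251 CPM in the Ad-GFP libraries against 305, 287 and 301 CPM in those labelled Ad-RNF128, and Dcn was at most 1.22 CPM. The 8 skeletal muscle markers found of 10 summed to 73.6, 116 and 119 CPM in Ad-GFP and to 47.8 to 48.8 CPM in the libraries labelled Ad-RNF128, with 6 of 7 tested called lower. Myod1, which sets skeletal muscle identity, was at 25.3 to 63.3 CPM in all 6. The 5 smooth muscle markers summed to 4799 to 5835 CPM, with 3 called higher and 1 lower. Among them was Des, a muscle gene not particular to smooth muscle. Des was at 7.70 and 8.62 CPM in Ad-GFP replicates 2 and 3 and at 105.6 CPM in Ad-GFP replicate 1. In the libraries labelled Ad-RNF128 it was at 66.8 to 70.0 CPM. The 5 endothelial markers summed to 4.55 to 7.78 CPM, mostly Vwf, and Pecam1, Cdh5, Kdr and Tek were under 1 CPM in all 6 libraries. Both endothelial genes tested were called higher by edgeR, and DESeq2 called neither. The 6 leukocyte markers found of 7 summed to 34.6, 17.4 and 16.8 CPM in Ad-GFP and to 22.7 to 22.9 CPM in the libraries labelled Ad-RNF128, mostly Cd14. Of 4 tested, edgeR called 2 higher and DESeq2 1. Csf1r was at 0.245 to 0.469 CPM in Ad-GFP and at 1.97 to 2.67 CPM in the libraries labelled Ad-RNF128, while Ptprc and Adgre1 were under 1 CPM in all 6. The part of other cells in the results below was not tested, and fewer cells of a type and less RNA per cell cannot be told apart here.

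Against Ad-GFP replicates 2 and 3, 5 of the 9 genes rose in the libraries labelled Ad-RNF128 (Atf3, Myc, Fosl1, Fos and Jun), 3 fell (Fosb, Egr1 and Fosl2), and Jund did not pass the test. The rises ran from 0.21 to 3.41 on the log2 scale and the falls from 0.36 to 0.57. The test was edgeR's quasi-likelihood test with Benjamini-Hochberg adjustment over all genes, at a threshold of 0.05. By the same rule 56.9% of the 13173 genes tested were called (28.9% higher, 28% lower), so more genes were called than not. By unadjusted p under 0.05, 8 of the 9 passed, as 61.4% of all genes did, and by DESeq2 7 of the 9 (all but Fosb and Jund), as 50.2% did. The sizes of the rises of Atf3, Myc and Fosl1 were over 2-fold, a size that 8.37% of the genes tested reached while passing the test. None of the falls was over 2-fold, as 3.79% of all genes were. CPM of the groups did not overlap for the 5 genes that rose (48.7% of all genes) and for 2 of those that fell, Fosl2 and Egr1 (23.6% of all genes). The median log2 change of the 9 genes was 0.21, against 0.02 over all genes tested.

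**Figure D1:**
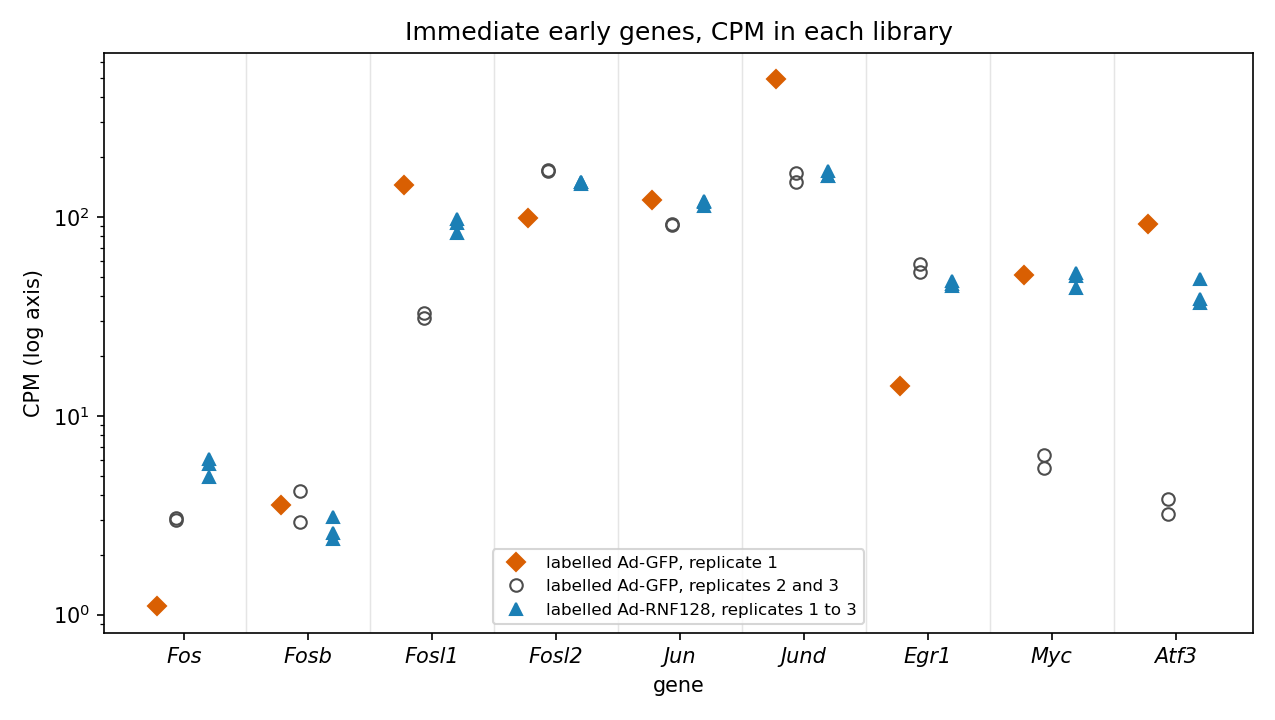
CPM (log axis) of 9 immediate early genes in each of the 6 libraries, 1 point per library. Atf3, Myc and Fosl1 lie well above Ad-GFP replicates 2 and 3 in the libraries labelled Ad-RNF128 (triangles), while Ad-GFP replicate 1 (diamonds) lies above those libraries for Atf3 and Fosl1 and among them for Myc, with Myc at 51.0 CPM and Atf3 at 92.5 CPM.

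The FOS family split. Fos, the founding subunit of AP-1, was at 3.05 and 3.00 CPM in Ad-GFP replicates 2 and 3 and at 4.91, 5.71 and 6.03 CPM in Ad-RNF128 replicates 1 to 3. Ad-GFP replicate 1 held 1.10 CPM, the lowest of the 6, and the groups did not overlap with or without it. The counts behind these values were few, 18 to 124 reads per library. Fos rose by 0.73 ± 0.18 on the log2 scale (SE, edgeR adjusted p = 0.00307).

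Fosl1, which encodes FRA-1, a FOS protein without the transactivation domain of FOS itself, was at 31.1 and 32.8 CPM in Ad-GFP replicates 2 and 3 and at 83.0, 93.0 and 97.7 CPM in the libraries labelled Ad-RNF128. The latter were all higher than these controls, but Ad-GFP replicate 1 was higher still, at 144.3 CPM. Against replicates 2 and 3 the log2 change of Fosl1 was 1.36 ± 0.09 (edgeR adjusted p = 5.74e-09).

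Fosl2, which encodes the related FRA-2, moved the other way and by less. It was at 170.4 and 172 CPM in Ad-GFP replicates 2 and 3 and at 146.6, 149.1 and 150.8 CPM in the libraries labelled Ad-RNF128, which lay below both. Ad-GFP replicate 1 was lowest, at 99.1 CPM. Fosl2 fell by 0.36 ± 0.06 on the log2 scale (edgeR adjusted p = 0.000209), and with library totals in place of TMM scaling the log2 change was -0.20.

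Fosb, whose product pairs with JUN proteins, was at 3.55, 2.94 and 4.17 CPM in Ad-GFP replicates 1 to 3 and at 2.57, 3.09 and 2.39 CPM in the libraries labelled Ad-RNF128. The groups overlapped. Its log2 change against replicates 2 and 3 was -0.57 ± 0.22 (edgeR adjusted p = 0.0405), a call near the threshold. It ended with DESeq2 (adjusted p = 0.103) and with library totals alone (edgeR adjusted p = 0.126). It also ended without Ad-GFP replicate 3, Ad-RNF128 replicate 1 or Ad-RNF128 replicate 3 (edgeR adjusted p of 0.472, 0.103 and 0.104), and over 10 alternatives the adjusted p ran from 0.0124 to 0.472 (edgeR or DESeq2).

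The ratio of 2 genes within a library does not depend on how libraries are scaled. The log2 ratio of Fosl1 to Fosl2 counts was -2.45 and -2.39 in Ad-GFP replicates 2 and 3 and -0.82, -0.68 and -0.63 in the libraries labelled Ad-RNF128. The Fosl1 share thus stood higher in every library labelled Ad-RNF128 than in these controls, by 1.71 on the log2 scale on average, and higher again in Ad-GFP replicate 1, at 0.54. The log2 ratio of Fos to Fosb was 0.05 and -0.47 in Ad-GFP replicates 2 and 3, and 0.93, 0.88 and 1.33 in the libraries labelled Ad-RNF128. In Ad-GFP replicate 1 that ratio was -1.66, the lowest of the 6.

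**Figure D2:**
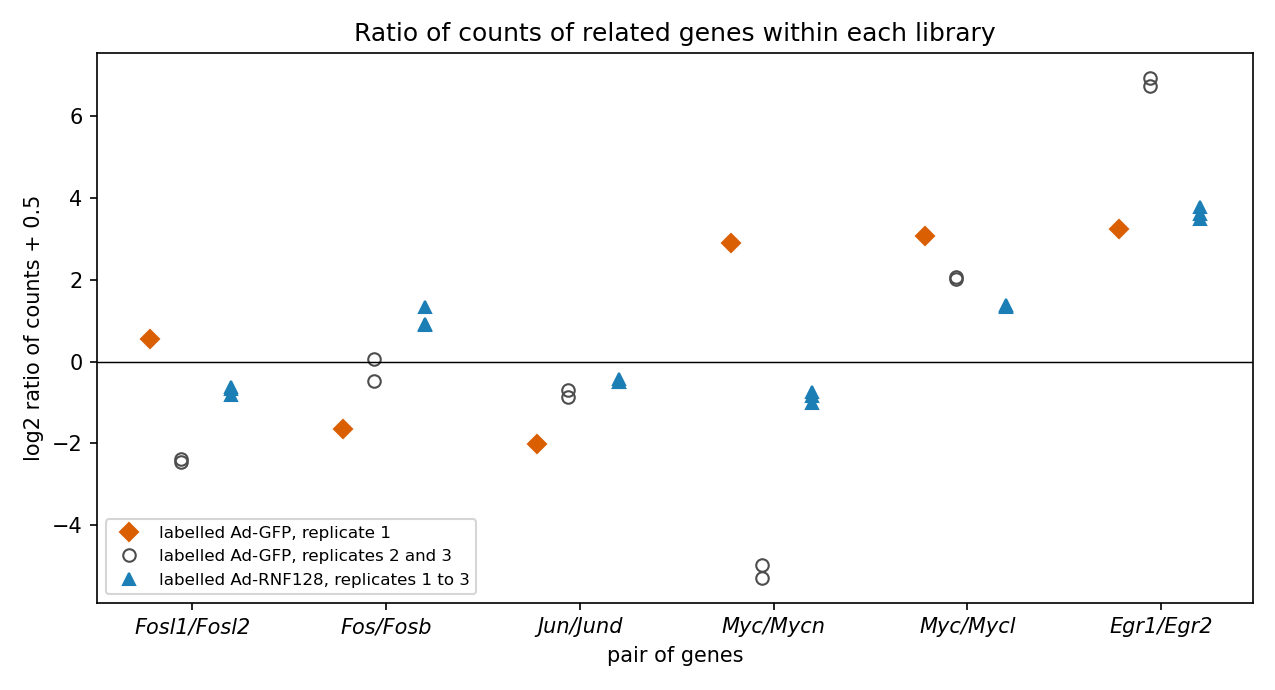
Log2 ratio of the counts of related genes (each count plus 0.5) within each library, 1 point per library. For Fosl1/Fosl2 and Myc/Mycn, Ad-GFP replicates 2 and 3 (circles) lie lowest, the libraries labelled Ad-RNF128 (triangles) between them and Ad-GFP replicate 1 (diamonds); for Fos/Fosb and Jun/Jund, Ad-GFP replicate 1 lies lowest.

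The starts of Fosl1 and Fosl2 are printed because these genes moved in opposite directions, and that of Jund because it did not pass the test. The sequences are from RefSeq (build GRCr8, the 250 bases before the gene's start, 5′ to 3′ on the gene's strand). Capitals mark matches on either strand to an AP-1 site (TGANTCA), a CRE (TGACGTCA), an E-box (CACGTG), an EGR site (GCGNGGGCG), an ISRE core, a TATA box (TATAAA) or a CArG box. No matches shown share a base.
Fosl1 (chr1:212183635-212183884, plus strand): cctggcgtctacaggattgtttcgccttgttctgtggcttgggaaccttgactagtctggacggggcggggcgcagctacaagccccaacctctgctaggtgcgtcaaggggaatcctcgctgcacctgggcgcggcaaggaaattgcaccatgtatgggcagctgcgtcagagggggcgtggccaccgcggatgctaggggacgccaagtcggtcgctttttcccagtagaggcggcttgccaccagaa
Fosl2 (chr6:30039270-30039519, minus strand): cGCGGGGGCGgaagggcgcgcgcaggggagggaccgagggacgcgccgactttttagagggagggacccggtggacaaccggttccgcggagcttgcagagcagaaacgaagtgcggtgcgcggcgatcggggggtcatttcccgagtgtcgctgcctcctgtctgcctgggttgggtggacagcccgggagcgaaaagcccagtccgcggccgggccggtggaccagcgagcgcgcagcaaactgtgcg
Jund (chr16:18769772-18770021, minus strand): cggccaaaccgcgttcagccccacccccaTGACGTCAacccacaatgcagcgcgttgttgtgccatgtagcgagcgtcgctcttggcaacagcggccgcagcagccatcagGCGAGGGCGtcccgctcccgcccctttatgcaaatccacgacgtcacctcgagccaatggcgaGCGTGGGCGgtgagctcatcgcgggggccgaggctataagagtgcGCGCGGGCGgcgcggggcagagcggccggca
The table of starts held 6 of the 10 listed genes (Fosb, Fosl1, Fosl2, Junb, Jund and Egr1), and 33469 starts in all. None of the 6 windows held the AP-1 site, which 6.34% of all windows did, or the E-box, which 5.59% did. The Fosl1 window held none of the 7 motifs, the Fosl2 window 1 EGR site, and the Jund window 1 CRE, as 1.59% of all windows did, and 3 EGR sites, a motif that 4.29% of windows held. The Egr1 window held 2 CArG boxes, the site that SRF binds, beginning 105 and 83 bases before the start, and 1.5% of all windows held at least 1. The Fosb window held an ISRE core (3.41% of all windows). It held the TATA box letters only on the opposite strand (TTTATA), beginning 180 bases before the start. The Junb window held a TATA box on the gene's strand (TATAAA), beginning 49 bases before the start. A match on either strand was in 12.9% of all windows. A match describes letters and is no evidence of a bound factor.

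In the JUN family the differences were small. Jun, the main partner of FOS proteins, was at 92.4 and 91.2 CPM in Ad-GFP replicates 2 and 3 and at 113.4, 119.5 and 120.7 CPM in the libraries labelled Ad-RNF128. Ad-GFP replicate 1 was the highest library, at 122.1 CPM. Jun rose by 0.21 ± 0.07 on the log2 scale over replicates 2 and 3 (edgeR adjusted p = 0.0146). The value was 0.36 with library totals alone. The call ended without Ad-GFP replicate 2 (edgeR adjusted p = 0.0783, in a range of 0.000289 to 0.0783 over 10 alternatives).

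Jund, a JUN protein gene known for steady expression in resting cells, was at 150.4 and 166.7 CPM in Ad-GFP replicates 2 and 3 and at 160.0, 160.7 and 171.3 CPM in the libraries labelled Ad-RNF128. These 2 groups overlapped. The level of Jund in Ad-GFP replicate 1 was 492.4 CPM, 3.1 times the mean of the other 2 controls. The log2 change against those 2 was -0.11 (edgeR 95% interval -0.26 to 0.05, adjusted p = 0.227). The sign turned with library totals alone (0.05). The log2 ratio of Jun to Jund was -0.70 and -0.87 in Ad-GFP replicates 2 and 3, -0.50, -0.43 and -0.51 in the libraries labelled Ad-RNF128, and -2.01 in Ad-GFP replicate 1.

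Egr1, an early growth response factor that SRF controls through CArG boxes, was at 57.9 and 53.1 CPM in Ad-GFP replicates 2 and 3 and at 46.3, 47.6 and 45.0 CPM in the libraries labelled Ad-RNF128. All 3 of the latter were lower, and Ad-GFP replicate 1 was lowest, at 14.1 CPM. Egr1 fell by 0.41 ± 0.07 on the log2 scale (edgeR adjusted p = 0.000129), and its log2 change was -0.26 with library totals alone. Its relative Egr2 rose. Egr2 was at 0.443 and 0.469 CPM in these controls, at 3.33, 4.19 and 3.64 CPM in the libraries labelled Ad-RNF128, and at 1.47 CPM in Ad-GFP replicate 1. The groups did not overlap over all 6 libraries, as for 30.4% of all genes in this direction. The log2 change of Egr2 was 2.86 ± 0.29 (edgeR adjusted p = 1.11e-06). The log2 ratio of Egr1 to Egr2 counts was 6.94 and 6.75 in Ad-GFP replicates 2 and 3 and 3.78, 3.50 and 3.62 in the libraries labelled Ad-RNF128, with 3.24 in Ad-GFP replicate 1.

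Myc, which drives growth and ribosome production, was at 6.32 and 5.44 CPM in Ad-GFP replicates 2 and 3 and at 43.7, 50.8 and 52.2 CPM in the libraries labelled Ad-RNF128. Its mean in the latter was 48.9 ± 4.5 CPM (SD, n = 3), 8.32 times that of the 2 controls. With 51.0 CPM, Ad-GFP replicate 1 lay among the latter. Against replicates 2 and 3 Myc rose by 2.91 ± 0.11 on the log2 scale (edgeR adjusted p = 2.5e-11).

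The other 2 MYC family genes did not move alike. Mycn was at 200.7 and 213.7 CPM in Ad-GFP replicates 2 and 3 and at 88.5, 90.4 and 87.0 CPM in the libraries labelled Ad-RNF128, a fall with a log2 change of -1.38 ± 0.07 (edgeR adjusted p = 2.28e-10). Mycl was at 1.50 and 1.31 CPM in these controls and at 17.2, 19.8 and 19.8 CPM in the libraries labelled Ad-RNF128, a log2 change of 3.60 ± 0.16 (edgeR adjusted p = 1.25e-10). Myc and Mycl were thus higher and Mycn lower in all 3 libraries labelled Ad-RNF128 than in both controls. Ad-GFP replicate 1 held Mycn at 6.79 CPM, the lowest of the 6, and Mycl at 6.05 CPM, between the groups. The log2 ratio of Myc to Mycn counts was -4.98 and -5.29 in Ad-GFP replicates 2 and 3, -1.02, -0.83 and -0.74 in the libraries labelled Ad-RNF128, and 2.90 in Ad-GFP replicate 1.

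Atf3 had the largest log2 change of the 9 genes in the fit without Ad-GFP replicate 1. It was at 3.21 and 3.80 CPM in Ad-GFP replicates 2 and 3 and at 36.9, 49.0 and 38.9 CPM in the libraries labelled Ad-RNF128 (mean 41.6 ± 6.5 CPM, SD, n = 3). The ratio of these means was 11.9. Ad-GFP replicate 1 was the highest library, at 92.5 CPM, 26.4 times the mean of the other controls. Against replicates 2 and 3 Atf3 rose by 3.41 ± 0.15 on the log2 scale (edgeR adjusted p = 1.16e-10). The log2 ratio of Atf3 to Jun, a partner of its product, was -4.83 and -4.58 in those controls, -1.62, -1.29 and -1.63 in the libraries labelled Ad-RNF128, and -0.40 in Ad-GFP replicate 1.

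With all 6 libraries none of the 9 genes was called, and 0% of the 12863 genes tested were. None of the 9 had an unadjusted edgeR p under 0.05, as 5.77% of all genes did. DESeq2 gave no adjusted p for Fosl1, Jund, Myc and Atf3 and called none of the other 5. It called 3% of all genes, a share that counts genes without an adjusted p as not called. Only Fos kept groups that did not overlap (higher, as for 30.4% of all genes), and none had groups that did not overlap in the lower direction, as 3.59% of all genes had. The log2 changes in this fit were 0.79 for Fos, -1.08 for Fosb, -0.70 for Fosl1, -0.52 for Fosl2, -0.56 for Jun, -1.73 for Jund, -0.21 for Egr1, 0.02 for Myc and -0.98 for Atf3. Their 95% intervals all held 0, and that of Atf3 ran from -4.84 to 2.88. The signs of Fosl1, Fosl2, Jun, Egr1 and Atf3 turned with library totals alone, and that of Myc with median-of-ratios factors (-0.51). The TMM factor was 0.47 for Ad-GFP replicate 1, against 1.07 to 1.22 for the others. With library totals alone the changes were 0.40 for Fosl1, 0.02 for Fosl2, 0.21 for Jun, 0.15 for Egr1, 1.23 for Myc and 0.33 for Atf3, and the median over all genes moved from -0.02 to 0.35.

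**Figure D3:**
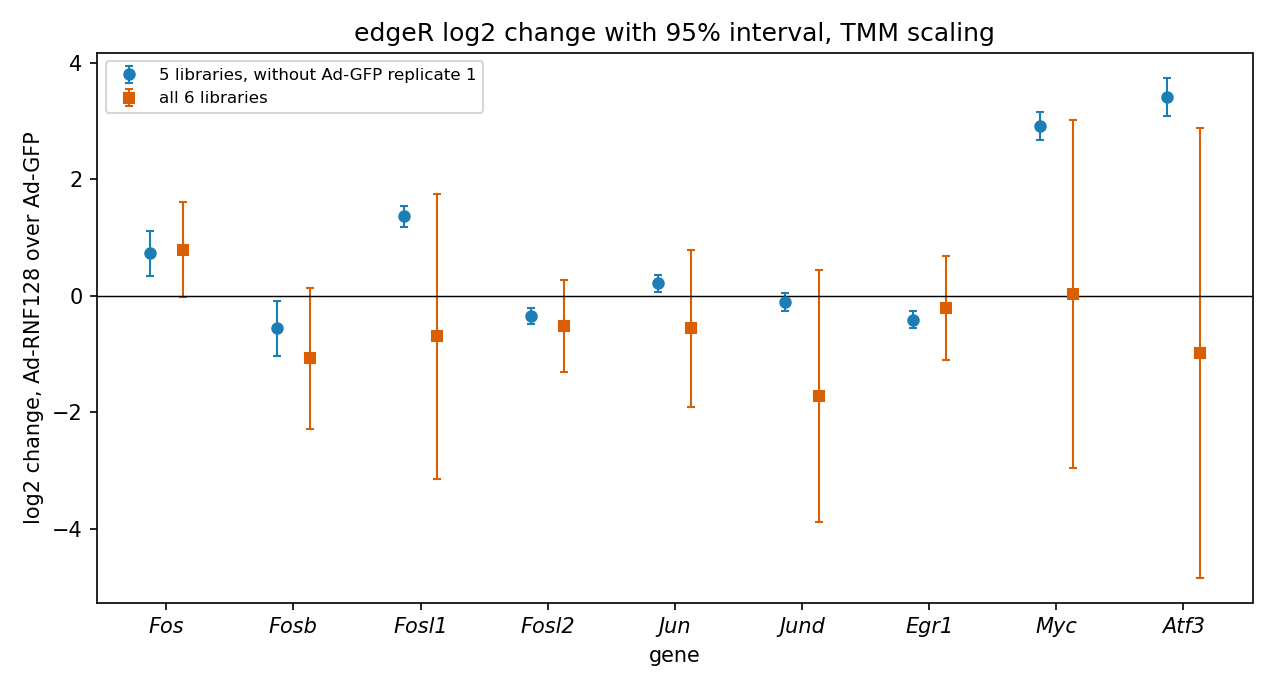
Log2 change of each gene, libraries labelled Ad-RNF128 over those labelled Ad-GFP, with 95% intervals from edgeR with TMM scaling, without Ad-GFP replicate 1 (circles) and with all 6 libraries (squares). With all 6 libraries each interval spans 0, and for Fosl1, Jun and Atf3 the estimate lies on the other side of 0, which it does not do with library totals alone.

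Ad-GFP replicate 1 did not sit on one side of the other libraries. It was the highest of 6 for 4 of the 9 genes (Fosl1, Jun, Jund and Atf3), as for 24.5% of all genes tested, and the lowest for 3 (Fos, Fosl2 and Egr1), as for 66.2% of all genes. For Myc it lay among the libraries labelled Ad-RNF128, and for Fosb between the other controls.

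The genes around this set are given from lists by role, against Ad-GFP replicates 2 and 3 and the same background of 28.9% higher and 28% lower. With library totals alone that background was 40.7% higher and 18.3% lower, with a median of 0.17 over all genes, and the counts given for that scaling are to be read against it. Of 23 other immediate early genes tested, 9 rose and 5 fell (median log2 change 0.11), and 12 rose and 4 fell with library totals alone. Sgk1, a kinase gene induced by serum and glucocorticoids, was at 6.81 and 7.17 CPM in these controls, at 27.6, 26.3 and 24.0 CPM in the libraries labelled Ad-RNF128, and at 3.91 CPM in Ad-GFP replicate 1. It was higher in all 3 than in every control, as 30.4% of all genes were. Its log2 change was 1.73 ± 0.11 (edgeR adjusted p = 4.85e-09). Ier3, an immediate early survival gene, had a log2 change of 0.94 ± 0.08 (edgeR adjusted p = 1.93e-07), but its level in Ad-GFP replicate 1 was 235.8 CPM, above every library labelled Ad-RNF128.

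Among other zipper protein genes whose products can pair with JUN or FOS, 4 of 11 tested rose and 3 fell (median -0.16), and 5 rose and 2 fell with library totals alone. Batf2, an interferon-inducible member, had no read in Ad-GFP replicates 2 and 3. It was at 2.69, 3.87 and 2.44 CPM in the libraries labelled Ad-RNF128, which is at least 39.4-fold higher than a floor of 3 counts summed over both controls (counting error only). With Batf2 at that bound the list's median was also -0.16. In Ad-GFP replicate 1 Batf2 was at 1.47 CPM. The small MAF protein genes Maff and Mafg rose by 0.61 ± 0.10 and 0.46 ± 0.06 on the log2 scale (edgeR adjusted p of 8.82e-05 and 2.87e-05). In Ad-GFP replicate 1 Maff was at 331 CPM, against 26.6 to 53.8 CPM in the other 5 libraries, and Mafg at 99.9 CPM, between the groups.

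On the route that induces these genes, 5 of 21 MAP kinase and serum response genes rose and 6 fell (median -0.08), and 6 rose and 3 fell with library totals alone. Map2k1, which encodes the ERK kinase MEK1, was at 100 and 101.2 CPM in the controls, at 260.7, 268.6 and 274.6 CPM in the libraries labelled Ad-RNF128, and at 79.2 CPM in Ad-GFP replicate 1. The libraries labelled Ad-RNF128 were thus above all 3 controls, as for 30.4% of all genes (log2 change 1.26 ± 0.07, edgeR adjusted p = 7.45e-10). Srf, the serum response factor gene, rose by 0.43 ± 0.07 (edgeR adjusted p = 0.000102), with 313.4 CPM in Ad-GFP replicate 1 against 97.1 to 154.7 CPM elsewhere. Map2k7, which encodes a JNK kinase, fell by 0.45 ± 0.08 (edgeR adjusted p = 0.000159), or by 0.29 with library totals alone.

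Of 15 genes for MAP kinase phosphatases and other feedback inhibitors, 7 rose and 4 fell (median 0.12). Spry2, an inhibitor of receptor tyrosine kinase signalling, was at 22.7, 22.6 and 20.8 CPM in Ad-GFP replicates 1 to 3 and at 84.5, 85.8 and 78.9 CPM in the libraries labelled Ad-RNF128. Dusp6, the cytoplasmic ERK phosphatase, was at 5.81, 17.2 and 15.7 CPM and at 56.8, 60.3 and 58.0 CPM in the same order. Dusp10, a JNK and p38 phosphatase, was at 2.26, 9.03 and 8.49 CPM and at 36.8, 39.3 and 33.3 CPM. For these 3 genes every library labelled Ad-RNF128 lay above every control, Ad-GFP replicate 1 included, as for 30.4% of all genes. Their log2 changes were 1.78 ± 0.08, 1.68 ± 0.08 and 1.91 ± 0.10 (edgeR adjusted p of 6.73e-11, 2.16e-10 and 7.19e-10). With all 6 libraries they were 1.22, 1.76 and 2.10. The edgeR adjusted p were then 0.681, 0.185 and 0.179, while DESeq2 called Dusp6 and Dusp10 (adjusted p of 0.000374 and 8.05e-06).

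**Figure D4:**
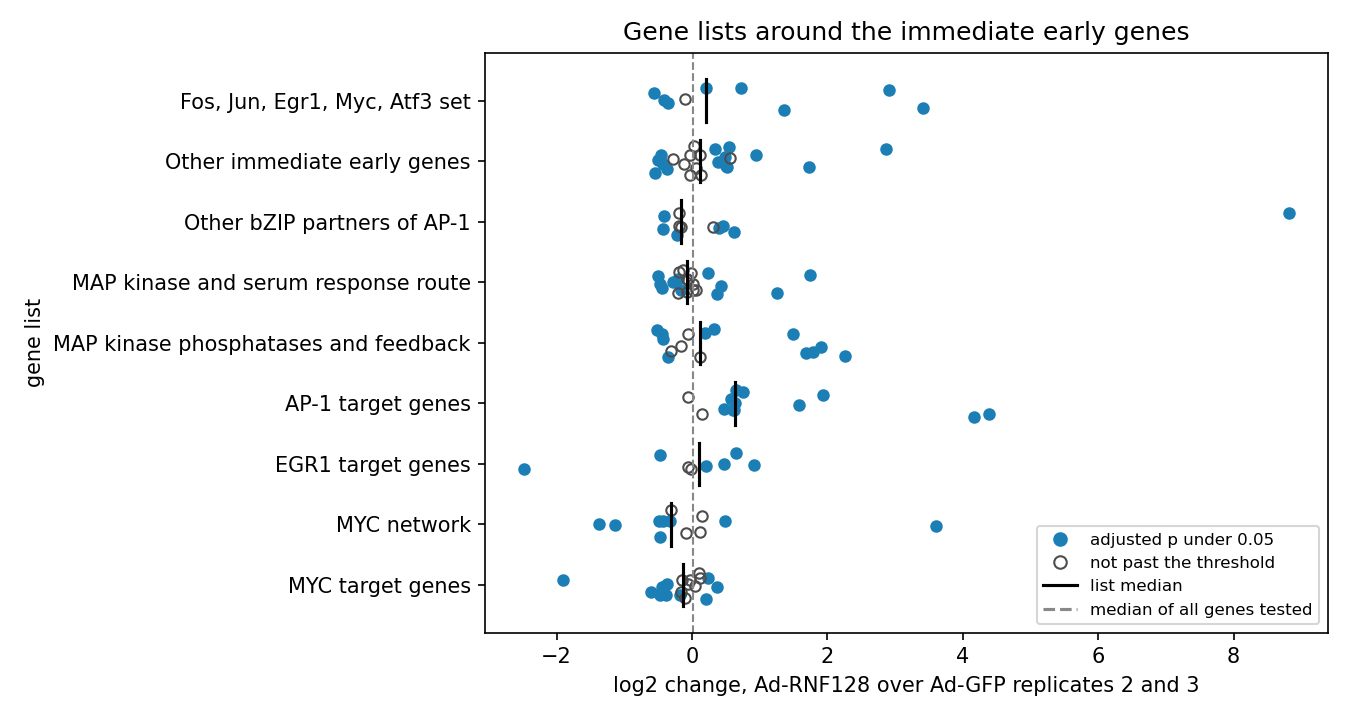
Log2 change without Ad-GFP replicate 1 for the genes tested in each list, 1 point per gene, filled where the edgeR adjusted p was under 0.05, with the list median (bar) and the median of all genes tested (dashed line, 0.02). The AP-1 target list has a median of 0.64; the point near 9 is Batf2, whose controls had no read, so that its fitted value is no measure of size.

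Of 13 tested genes listed as targets of AP-1, 11 rose and 0 fell, with a median log2 change of 0.64. The other 2, Hbegf and Timp1, had log2 changes of 0.15 and -0.06 (edgeR adjusted p of 0.111 and 0.487). Another 5 listed genes were too low to be tested (Mmp3, Mmp10, Mmp12, Mmp13 and Ereg). Spp1, which encodes the secreted protein osteopontin, was at 21.6, 88.8 and 64.7 CPM in Ad-GFP replicates 1 to 3 and at 331.8, 327.0 and 321.5 CPM in the libraries labelled Ad-RNF128. It was higher in all 3 than in any control, as 30.4% of all genes were. Its log2 change was 1.94 ± 0.10 (edgeR adjusted p = 3.41e-10). Plaur, the urokinase receptor gene, rose by 0.75 ± 0.08 and Ccnd1, the cyclin D1 gene, by 0.64 ± 0.07 on the log2 scale (edgeR adjusted p of 1.62e-06 and 1.78e-06). Ad-GFP replicate 1 held Plaur at 128.1 CPM, the highest of the 6 libraries, and Ccnd1 at 199.3 CPM, the lowest. With all 6 libraries the list's median was 0.51, with 7 genes above 0 and 6 below (1.05, 11 and 2 with library totals alone; 0.25, 7 and 6 with median-of-ratios factors), and edgeR called 0 (2 had an unadjusted p under 0.05) and DESeq2 2.

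The EGR1 target list, which shares 2 genes with the AP-1 list, had 4 of 8 tested genes up and 2 down (median 0.10). Pdgfb, for a growth factor, was at 32.1 and 35.4 CPM in Ad-GFP replicates 2 and 3, at 7.25, 6.22 and 6.70 CPM in the libraries labelled Ad-RNF128 and at 7.71 CPM in Ad-GFP replicate 1. All 3 controls thus lay above, as for 3.59% of all genes. Pdgfb fell by 2.49 ± 0.10 on the log2 scale (edgeR adjusted p = 4.67e-11). Thbs1, a matrix glycoprotein gene, fell by 0.48 ± 0.07 (edgeR adjusted p = 6.75e-05). It was at 243 CPM in Ad-GFP replicate 1, against 4806 to 6576 CPM in the other 5 libraries.

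Of 12 genes of the MYC network besides Myc, 2 rose and 6 fell (median -0.32), and 4 rose and 5 fell with library totals alone. Besides Mycn and Mycl, given above, Mxd4, a MAX partner that opposes MYC, fell by 1.14 ± 0.07 on the log2 scale (edgeR adjusted p = 7.72e-09), from 123.5 and 135.1 CPM to 69.7, 62.9 and 63.8 CPM. Mxd4 was lowest in Ad-GFP replicate 1, at 46.7 CPM. Max itself had a log2 change of -0.09 (edgeR adjusted p = 0.298).

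Of 18 genes listed as MYC targets, 3 rose and 7 fell (median -0.13), and 5 rose and 6 fell with library totals alone, where the median was 0.02. The 3 with the smallest p all fell. Tfrc, for the transferrin receptor, had 171.3 and 124.8 CPM in Ad-GFP replicates 2 and 3 and at 39.5, 49.8 and 42.1 CPM in the libraries labelled Ad-RNF128, a log2 change of -1.90 ± 0.11 (edgeR adjusted p = 1.87e-09). It was at 0.612 CPM in Ad-GFP replicate 1. Cad, for pyrimidine synthesis, and Nme1, a nucleoside diphosphate kinase gene, fell by 0.61 ± 0.07 and 0.45 ± 0.07 (edgeR adjusted p of 1.82e-06 and 5.19e-05), and Nme1 by 0.29 with library totals alone. In Ad-GFP replicate 1 Nme1 was highest of the 6 libraries, at 323 CPM against 97.5 to 124 CPM, and Cad was at 409 CPM, between the groups.

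The gene most like each member was sought by Pearson's r of log2(CPM + 1) over the 6 libraries among 9104 genes with a mean of at least 10 CPM. These are descriptions over 6 points that share the libraries, and Ad-GFP replicate 1 weighs in all of them. For Myc it was Zfand2a (r = 0.999), which was at 188.1, 79.5 and 77.8 CPM in Ad-GFP replicates 1 to 3 and at 177, 191.3 and 201.5 CPM in the libraries labelled Ad-RNF128. For Atf3 it was Ptpmt1 (r = 0.999), for Fosl1 Arf6 (r = 0.999), for Jun Wipi2 (r = 0.998), for Jund Stub1 (r = 1.000), for Fos Chst2 (r = 0.999), for Fosl2 Tnrc18 (r = 1.000), for Egr1 Tmpo (r = 1.000) and for Fosb Csad (r = 0.946). Such likeness was common for some members. Over 0.95 were 4225 genes for Egr1, 1917 for Fosl2 and 1148 for Jund, against 198 for Myc, 299 for Atf3 and 0 for Fosb.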

How the data were processed

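RNA was sequenced from 6 libraries, 3 labelled Ad-GFP and 3 labelled Ad-RNF128, grouped and numbered by their titles. Per the submitters' processing notes the authors used HISAT2, HTSeq 0.13.5 and the build mRatBN7.2, and deposited counts of reads per gene; the strand setting was not given in the sources used here. The deposited column of Ad-GFP replicate 1 was handled like expected counts and rounded, since 1 of its 18077 values was not whole; the others were. CPM was computed from the library total. Tests were run with edgeR 4.0.16 in R 4.3.3 (filterByExpr, TMM, quasi-likelihood F-test, Benjamini-Hochberg over all genes tested, threshold 0.05), without Ad-GFP replicate 1 and with all 6 libraries. The ± after a log2 change is an SE derived from the change and its F statistic. With 2 control libraries the spread is pooled over both groups. Alternatives were median-of-ratios factors, library totals alone, DESeq2 1.42.0, 2 other low-count filters, a replicate block and leaving out each library. Only the edgeR fit with TMM without Ad-GFP replicate 1 was tested on simulated data, with 200 of 12953 genes changed. It recovered 99 of 100 2-fold and 100 of 100 4-fold changes, and 16 of 215 calls were false. In the real data 56.9% of genes were called, so the simulation does not test the scaling under so many changes. The members, the lists and the separate handling of Ad-GFP replicate 1 were chosen with earlier results of these data known. Named were all members, Rnf128, Rnf157, the 3 called genes with the smallest p of each list and the most similar gene of each member, except 1 gene that is not reported here; other genes named were chosen after their values were seen. RefSeq starts are of build GRCr8, not the build of the counts.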

Additional observations from a re-analysis of the deposited data

How the results depend on the processing

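Without Ad-GFP replicate 1, 142 of 143 counts recomputed under the alternatives stayed within 1.5 times. The exception was all genes called lower, 3689 with TMM and 2409 with library totals alone (higher, 3812 and 5367). The counts of the gene lists pooled rises and falls, so a shift from falls to rises could not show in them. With library totals alone the MYC network moved from 2 higher and 6 lower to 4 and 5. The MYC targets moved from 3 and 7 to 5 and 6. Jund turned to 0.048 with library totals alone. Leaving out 1 more library gave 7 to 8 of the 9 genes called, 4 to 5 higher and 2 to 3 lower. Where Ad-GFP then kept 1 library, it was assumed to vary like the other group.

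With all 6 libraries the results depended on Ad-GFP replicate 1: leaving out 1 library gave 0 to 8 of the 9 genes called (0 to 5 higher, 0 to 3 lower), 0 to 3812 genes higher and 0 to 3689 lower. Over the lists such counts were 0 to 14 (other immediate early genes) and 0 to 7 (other zipper protein genes). They were 0 to 11 (MAP kinase route), 0 to 11 (feedback), 0 to 11 (AP-1 targets) and 0 to 6 (EGR1 targets). For the MYC network they were 0 to 8 and for the MYC targets 0 to 10. Each upper value is without Ad-GFP replicate 1. Library totals alone called 8 genes higher, and DESeq2 244 higher and 142 lower, with 2 feedback, 2 AP-1 target, 1 EGR1 target and 1 MYC network genes. Signs of log2 changes turned as follows. Library totals alone gave 0.40 for Fosl1, 0.016 for Fosl2, 0.21 for Jun, 0.15 for Egr1 and 0.33 for Atf3. For Myc, median-of-ratios factors gave -0.51 and the stricter filter -0.022. Over single libraries left out, Fosl1 ran from -1.15 to 1.36, Jun from -0.82 to 0.21, Myc from -0.50 to 2.91 and Atf3 from -1.54 to 3.41. Without Ad-GFP replicate 2 or 3, or Ad-RNF128 replicate 3, Myc was at -0.46, -0.50 and -0.03. The cause was not tested.

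Whether the replicate numbers pair the libraries could not be decided. Without Ad-GFP replicate 1 the deviations of Ad-GFP replicates 2 and 3 mirror each other, and with it that outlying library weighs in every Ad-GFP deviation. Deviations from the group means correlated at -0.20, 0.03 and -0.17 for numbers 1 to 3 over 6 libraries, and at 0.08 and 0.19 for numbers 2 and 3 without Ad-GFP replicate 1. With a replicate block 7 of the 9 genes were called without Ad-GFP replicate 1 (Fosb was not, edgeR adjusted p = 0.0863), beside 3931 genes higher and 3864 lower, and 0 with all 6 libraries, where Fosl1 was at 0.36 and Atf3 at 2.00. Depth limits Fos, Fosb, Egr2 and Batf2, whose counts were few.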
